A study of Mus musculus with 15 samples.

Results

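The most abundant piRNA loci of mouse testis were selected on the mock values, as the rows whose mean level over the 3 mock libraries reached 100 CPM. CPM is a locus's count divided by the total of its file and multiplied by 1000000, and a locus absent from a file was counted as 0. The rule gave 881 loci out of 8128951 with a count in any of the 15 libraries. A locus here is 1 genomic interval on 1 strand in the mm10 build, so reads that share a 5′ end but differ in length by 1 nt fall into different loci. The mock values chose the loci, so every mock level and every mock comparison below is a description and carries no test.

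All 15 libraries came from small RNA of testes of male C57Bl/6 mice aged 8 weeks, a wild-type strain, with 3 libraries in each of 5 groups. Mock and CMC libraries came from RNA left without or treated with CMC, a carbodiimide that leaves a bulky adduct on pseudouridine (Ψ) at which reverse transcriptase stops. Input, IP and flow-through libraries came from an immunoprecipitation with an antibody against Ψ: the RNA before it, the bound fraction and the unbound fraction. The mock and CMC libraries were made with one kit and the other 9 with another, so kit and experiment cannot be told apart in any comparison between the 2 sets. The labels do not say which libraries came from separate mice, so each p-value measures the spread between libraries, which may be technical. Whole testis mixes germ cells of several stages with somatic cells, and fewer cells of a type cannot be told apart from less piRNA per cell. Totals ran from 11575705 to 58399368 counts per library, so that 1 count was worth at most 0.0864 CPM.

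piRNAs are small RNAs of the germline that are bound by PIWI proteins and guide the silencing of transposons and the decay of transcripts. In the adult testis most of them are pachytene piRNAs, cut one after another from long single-stranded or bidirectional precursor transcripts of a limited number of genomic clusters. The 5′ base of a primary piRNA is usually U, and the 3′ end is trimmed and methylated, which leaves several lengths for a single 5′ end.

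Reference sequence was at hand for the 88 members that lie within annotated exons (GENCODE M21, GRCm38, the build also called mm10), none of which matched a miRNA. The sequences below are written 5′ to 3′ as RNA. The first base is in capitals, as is any UNUAA or UNUAG, the motif that the pseudouridine synthase PUS7 is known to prefer. The first pair shows the second most abundant member, on the plus strand opposite exon 1 of 5330409N07Rik, with the member that starts 1 nt upstream.
chr12:98447235-98447263: GaccauuucacucagacUGUAAccaugac
chr12:98447234-98447263: UgaccauuucacucagacUGUAAccaugac
The next pair has a single 5′ end on the minus strand in exon 3 of the noncoding gene Gm5878, and its lengths of 30 and 29 nt were called in opposite directions in IP against input.
chr6:85112878-85112907: Uagaagacgaguuuggacugagcgaaauuc
chr6:85112879-85112907: Uagaagacgaguuuggacugagcgaaauu
The last 4, chosen after their values were seen, span the range of uridine content that the CMC ratio followed. The first of them is from Gm49794 (plus strand), the second from Nemp1 (plus strand, coding exon), the third from Gm30132 (minus strand, exon 4) and the fourth from Gm21388 (plus strand).
chr17:27356011-27356031: Ugaacuggaccaggaggaaga
chr10:127694470-127694499: Uacaaauaugggccccuggaaaaugaacga
chr8:93419670-93419699: Ucuuuccgugugugcugugacauuuugucc
chr3:34867947-34867976: Ugugauuuuuguguguaugagauuugaauc

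The 881 loci lay in 58 clusters, taken as runs of members at most 50000 bases apart, on 17 chromosomes. The 6 clusters with most members held 386 of them and 10.9% of all mock counts, 12 clusters held 1 member, and the median was 5. The cluster with most, chr17:27294936-27358920, had 122 members at 66 different 5′ ends, 54 on the plus and 68 on the minus strand, over the long noncoding genes Gm10505, Gm49793 and Gm49794. Members on both strands also filled chr9:67696390-67748523 (64 members), chr5:113322651-113352565 (51), chr6:127789780-127835800 (48) and chr12:98388577-98447268 (47). By contrast, all 54 members of chr2:92542041-92596553 were on the plus strand and all 43 of chr18:67037378-67066364 on the minus strand. Over all members the strands were nearly even, with 446 plus and 435 minus.

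Most members were outside annotated genes. These were 638 of the 881 (72.4%), against 62.9% of the 556583 loci with more than 20 counts over the mock and CMC libraries. A further 139 were intronic, 61 were in noncoding exons, 6 in coding exons and 5 in untranslated regions, while 16 were antisense to an exon and 16 antisense to an intron. Among protein-coding genes, 18 intronic members lay in Cyp19a1, which encodes aromatase, the enzyme that makes oestrogens from androgens. Outside repeats were 766 members (86.9%, against 85.2% of those loci). Of the other members, 51 overlapped LTR elements, 37 LINEs, 20 SINEs and 7 DNA transposons.

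The length of the members was narrower than that of other loci. Between 29 and 31 nt were 77.1% of the members against 40.9% of those loci, and 313 members (35.5%, against 16.1%) were exactly 30 nt long. The contrast was smaller by counts, as 29 to 31 nt held 60.1% of all mock counts and 30 nt held 25.4%. Only 7 members were 23 nt or shorter and 100 were 24 to 27 nt. Of the 88 members with sequence, 75 began with U (85.2%, against 83.8% of 92056 exonic loci), and 21 had A at position 10 (23.9% against 26.5%), the base that marks piRNAs made by ping-pong amplification, in which PIWI proteins cut opposite strands in turn. No pair of members on opposite strands overlapped by 1 to 20 nt at their 5′ ends. The UNUAA or UNUAG letters, searched on the piRNA strand only, were in 26 of the 88 (29.5%, against 23.4% of the exonic loci).

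Many members were length variants of each other. The 881 loci had 607 different 5′ ends, of which 160 gave 2 or more members, 434 in all. The end at position 52909517 of chromosome 7 gave most, with 7 members of 25 and 27 to 32 nt. Its 30-nt form held 58.4% of the counts of that end in mock and 55.6% in input. In the median, a member held 47.5% of the counts of its 5′ end in mock and 36.9% in input. Members with neighbouring starts were common as well, with 31 pairs of 5′ ends on the same strand 1 nt apart, 15 pairs 2 nt apart and 22 pairs 3 nt apart.

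The 881 loci held a several-fold larger share of the piRNA counts in the mock and CMC libraries than in the libraries of the IP experiment. Their share was 23.1, 23.4 and 23.7% in the mock libraries and 22.4, 21.1 and 21.4% in the CMC libraries. It was 5.26, 5.37 and 5.37% in input, 5.04, 5.31 and 5.44% in IP, and 4.21, 4.79 and 4.56% in flow-through. The 6 mock and CMC libraries lay far above the other 9. As many of each library's own most abundant loci held 23.2 to 23.7% of counts in mock but 11.96 to 12.16% in input. Summing all lengths at the 607 ends gave 30.8 ± 0.371% of counts (SD, n = 3) in mock and 8.17 ± 0.130% in input. Counting all starts within 2 nt of them gave 33.5 ± 0.394% and 9.48 ± 0.146%.

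**Figure D1:**
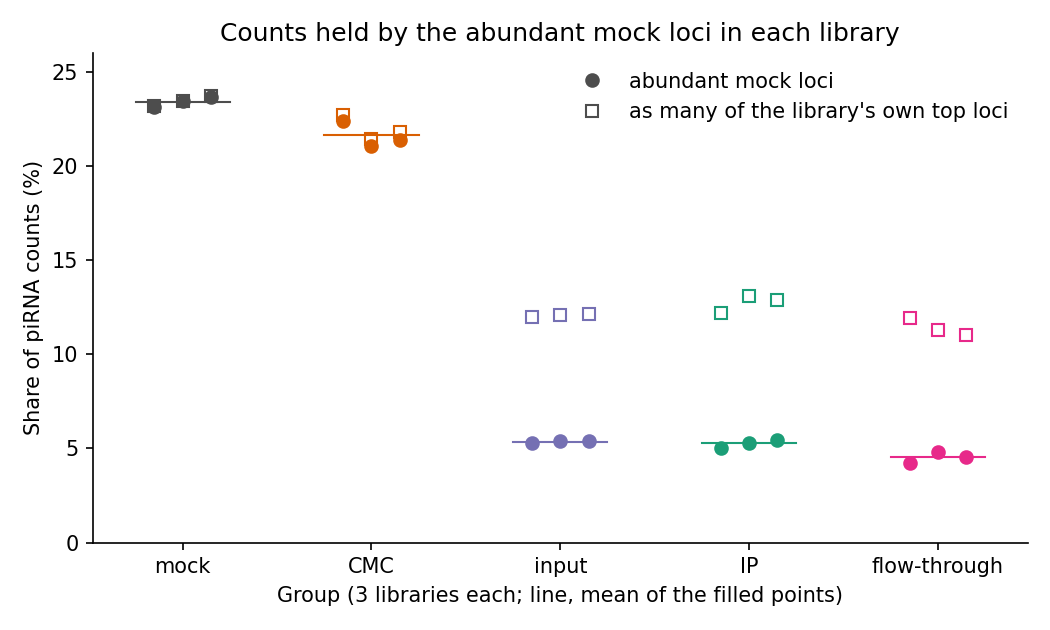
Share of piRNA counts in each of the 15 libraries held by the 881 abundant mock loci (filled circles, with the group mean as a line) and by as many of that library's own most abundant loci (open squares). The mock circles lie between 23.1 and 23.7% and the input circles between 5.26 and 5.37%, while the input squares lie between 11.96 and 12.16%.

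Locus by locus, the levels of the 2 sets were loosely related. The median member had 165 CPM in mock and 23.99 CPM in input, the median ratio of input to mock was 0.128, and 41 members were higher in input. Only 119 of the 406 loci that reached a mean of 100 CPM in input were members, which is 29.3% of those loci and 13.5% of the members. Across the 881 members, Pearson's r of log2(mean CPM + 0.1) was 0.95 between mock and CMC, 0.44 between mock and input and 0.84 between input and IP. The spread between libraries was small in mock, with a median coefficient of variation of 5.76%, against 9.55% in CMC, 11.1% in input, 17.2% in IP and 19.9% in flow-through.

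**Figure D2:**
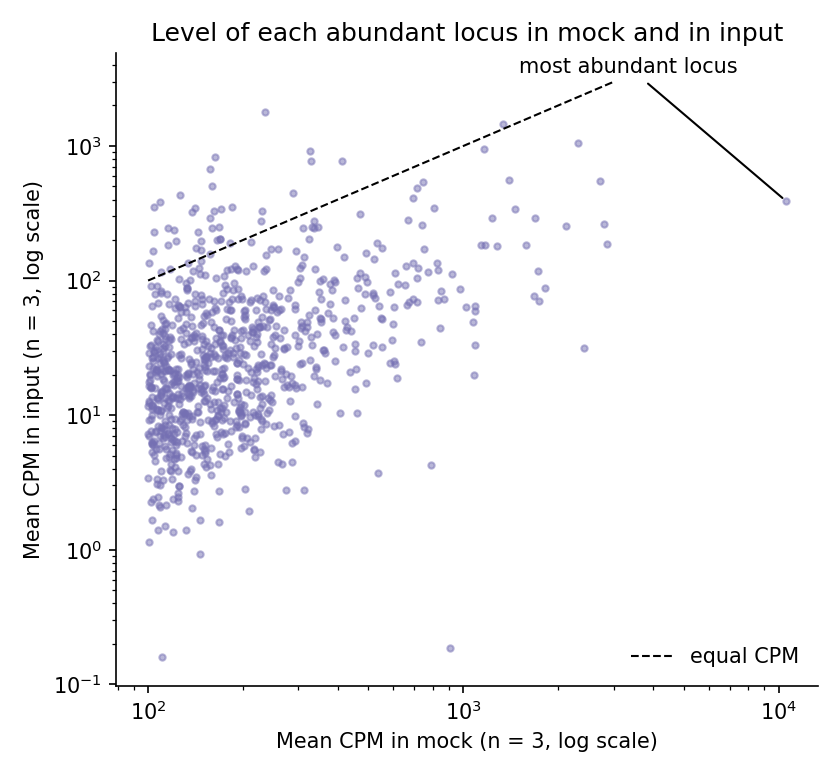
Mean CPM of each of the 881 loci in mock (x axis) and in input (y axis), both on log scales, with a dashed line at equal values. Most points lie below the line, 41 lie above it, and the most abundant locus is at 10528 CPM in mock and 392 CPM in input.

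A single locus held about 1% of the mock counts. It is chr12:98400625-98400653 on the minus strand, a 29-nt interval outside annotated genes that overlaps MER94B, a DNA transposon of the hAT-Blackjack family. Its level was 10424, 10383 and 10777 CPM in mock and 10441, 8786 and 9908 CPM in CMC, with overlapping ranges. It stood at 437, 292 and 447 CPM in input, 158, 77.4 and 140 CPM in IP, and 70.9, 115 and 146 CPM in flow-through. All 3 input libraries were above all IP and flow-through libraries, which overlapped each other. In edgeR the log2 fold change was -1.79 ± 0.19 (SE) in IP against input (adjusted p = 1.03e-17) and -2.04 ± 0.23 in flow-through against input (adjusted p = 2.39e-07). In IP against flow-through it was 0.43 ± 0.24 (adjusted p = 0.212). The locus ranked 30th among all loci in input. Its 5′ end gave 4 members of 28 to 32 nt, together 13049.5 CPM in mock, and all 4 fell in both IP and flow-through against input.

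The second most abundant member, the one with G as its first base printed above, had 2794, 2749 and 2996 CPM in mock and 3295, 2651 and 3285 CPM in CMC. It had 187, 207 and 163 CPM in input, 133, 151 and 175 CPM in IP and 271, 310 and 299 CPM in flow-through. IP overlapped input, and flow-through was above both without passing the threshold of an adjusted p under 0.01 (0.0232 against IP and 0.0466 against input). Its 5′ end gave 6 members of 27 to 32 nt with 6071 CPM in mock, and none of the 6 was called in any of the 3 comparisons of the IP experiment. All lengths that start at this G summed to 6144 ± 291 CPM in mock (SD, n = 3), those that start at the U 1 nt upstream to 432 ± 21.6 CPM, and those 1 nt downstream to 106 ± 3.88 CPM. In input the same 3 starts summed to 539 ± 117, 38.9 ± 6.45 and 12.2 ± 3.40 CPM, in the same order.

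The third, in Gm5878, had 2785 ± 62.8 CPM in mock (SD, n = 3), and 218, 323 and 245 CPM in input, 148, 151 and 255 CPM in IP and 431, 540 and 521 CPM in flow-through. Flow-through was above every library of the other 2 groups, with a log2 fold change of IP against flow-through of -1.15 ± 0.23 (adjusted p = 1.20e-05), while IP and input overlapped. The fourth, chr18:67038710-67038739 on the minus strand, went the other way. It had 609, 560 and 474 CPM in input, 798, 1073 and 1073 CPM in IP and 200.5, 308 and 314 CPM in flow-through, so that the 3 groups did not overlap. IP was higher than flow-through by 2.10 ± 0.23 on the log2 scale (adjusted p = 5.33e-18) and higher than input by 0.71 ± 0.18 (adjusted p = 0.000796). The call against input was lost without input replicate 1 (log2 fold change 0.79, adjusted p = 0.0133), without input replicate 3 (0.57, adjusted p = 0.0939) and with no minimum on counts (0.61, adjusted p = 0.491).

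Others among the 10 most abundant showed how far the sets could differ. The fifth, chr17:27295999-27296027 on the minus strand, had 2406 ± 191 CPM in mock and 31.4 ± 3.10 CPM in input, where it ranked 2669th. The sixth, chr11:107995808-107995836, runs antisense to an intron of Prkca, which encodes protein kinase C alpha, and kept 1048 ± 120 CPM in input of 2304 ± 24.5 CPM in mock. Its libraries stood at 1161, 922 and 1060 CPM in input against 237, 215 and 278 CPM in IP and 183, 301 and 324 CPM in flow-through. IP and flow-through overlapped each other and were both below input, by log2 fold changes of -2.24 ± 0.19 (adjusted p = 1.09e-28) and -2.17 ± 0.20 (adjusted p = 1.51e-08). The seventh, the 30-nt form at chr7:52909517-52909546, had 224, 281 and 261 CPM in input, 464, 676 and 490 CPM in IP and 90.8, 85.8 and 82.4 CPM in flow-through. None of these ranges overlapped, and the rise in IP was 0.95 ± 0.18 against input (adjusted p = 6.72e-06) and 2.91 ± 0.24 against flow-through (adjusted p = 7.63e-30). With no minimum on counts, the call against input was lost (log2 fold change 0.86, adjusted p = 0.162). Of the 7 length forms at that end, it alone was called against input, and 5 were called higher in IP against flow-through.

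Some short members had next to no counts in the IP experiment. The 19-nt locus chr6:127817749-127817767 on the plus strand, in an L2 element (an old LINE family), ranked 30th in mock with 854, 802 and 1072 CPM. In input it had 11, 2 and 0 counts, and 0 counts of the third library allow up to 0.159 CPM, a limit that covers counting error only. Another 19-nt member, chr12:98398940-98398958, had 3722, 5612 and 5246 counts in mock and 5, 2 and 3 in input, and was the 1 member with too few counts to be tested in the IP experiment. The remaining members of 19 nt, both on chromosome 9, had 415 or more counts in each input library. Their means were 35.7 and 38.3 CPM in input and 140 and 138 CPM in mock. The 2 members of 23 nt had 5.59 and 1.39 CPM in input and 150 and 132 CPM in mock. The study's methods give a gel cut for the IP experiment that would leave out RNA of 19 nt or over 30 nt, while the labels give a wider one for all libraries. Whether size selection lowered the counts of the first 2 members of 19 nt in the IP experiment was not tested. For members over 30 nt the median ratio of input to mock was 0.166 at 31 nt, 0.153 at 32 nt and 0.236 at 33 nt (2 members). It was 0.155 at 30 nt and 0.118 at 29 nt. The most abundant member of 24 to 27 nt, the 26-nt chr17:27318603-27318628 in an intron of Gm49793, had 554 ± 30.2 CPM in mock (SD, n = 3). It had 164, 210 and 150 CPM in input, 137, 221 and 168 CPM in IP and 76.4, 186 and 133 CPM in flow-through, with overlapping ranges and no call in the 3 comparisons.

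The IP experiment did not choose the loci, and its 3 comparisons were tested with edgeR's quasi-likelihood test over all 686863 loci with more than 20 counts over its 9 libraries. The comparisons share libraries with each other. At an adjusted p under 0.01, 210 of 880 members were higher and 263 lower in IP against input. Of all loci tested, 5.45% were higher and 10.7% lower. A call against input is not by itself enrichment by the Ψ antibody, since flow-through moved the same way at several members named here. Members that moved the same way in both fractions were not counted. The higher calls were 133 without input replicate 1, 127 without input replicate 3 and 89 with no minimum on counts. Both directions together are 53.8% of members, against 16.1% of all loci tested and 53.5% of the 25554 other loci that averaged at least 100 counts, a background taken after the data were seen, of which 6401 were higher and 7262 lower. The share called was thus close to that of other loci of similar depth. The median log2 fold change was -0.03 over the members and -0.10 over all loci. The median rise was 1.07 (log2) and the largest 2.16, and the median fall was 1.46 in size and the largest 4.76.

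In IP against flow-through the members were higher more often than lower, with 300 higher and 133 lower. Together these are 49.2% of the members, against 12.9% of all loci and 52.0% of the other loci of at least 100 counts. Higher calls made up 34.1% of the members, 9.3% of all loci and 31.8% of those other loci, and lower calls 15.1, 3.56 and 20.2%. The median log2 fold change was 0.29 over the members, 0.08 over those other loci and -0.02 over all loci. In flow-through against input 130 members were higher and 350 lower, 54.5% of members against 16.2% of all loci and 58.8% of the other loci of at least 100 counts, with medians of -0.53, -0.24 and -0.34 in that order. Higher calls were 14.8% of the members, 6.45% of all loci and 22.0% of those other loci, and lower calls 39.8, 9.73 and 36.8%. The 130 higher calls became 86 without input replicate 1 or without input replicate 3, 83 with no minimum on counts and 196 with a minimum average of 10 counts. Of the 263 members lower in IP than in input, 262 were so in all 9 pairs of libraries, and of the 300 higher in IP than in flow-through, 299.

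The largest rise in IP against input was at chr14:44777855-44777884, which runs antisense to an intron of Gm17187. It had 6.50, 8.51 and 6.83 CPM in input, 30.4, 39.6 and 36.9 CPM in IP and 73.7, 61.8 and 37.7 CPM in flow-through. IP lay above all of input, by 2.16 ± 0.23 on the log2 scale (adjusted p = 4.64e-18), and flow-through lay above input by 2.79 ± 0.24 (adjusted p = 8.64e-09), so that both fractions were higher than the RNA they came from. The same held for a trio of members of 24, 25 and 26 nt with a single 5′ end at position 113349229 of chromosome 5, on the plus strand. They had 3.99, 8.55 and 3.83 CPM in input and 14.8, 32.3 and 17.1 CPM in IP, with rises of 1.76, 1.79 and 2.01 on the log2 scale. Flow-through was higher still, at 38.6, 76.0 and 40.3 CPM in that order, and all 3 were called lower in IP than in flow-through. By contrast, chr12:98401756-98401784 rose to 23.6, 33.8 and 25.9 CPM in IP from 5.67, 10.9 and 5.03 CPM in input, with 6.98, 10.1 and 6.78 CPM in flow-through. Input and flow-through overlapped there, and IP was above both, by 1.82 ± 0.23 (adjusted p = 9.22e-13) and 2.05 ± 0.29 (adjusted p = 8.21e-11).

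The largest fall was at chr7:73811290-73811319 in an intron of Gm10619, a long noncoding gene. It had 346, 151 and 230 counts in input, 0, 0 and 24 counts in IP and 42, 82 and 68 counts in flow-through. The log2 fold change of IP against input was -4.76 ± 0.34 (adjusted p = 1.23e-38). Over the other settings it ran from -10.67 without IP replicate 3, the 1 IP library with counts, where it rests on the prior count of the fit, to -3.33 with all lengths at its 5′ end summed. The DESeq2 Wald test gave -5.23 with an adjusted p of 0.0180, which is not under the threshold. A fall that rests on more counts was that at chr9:67722887-67722915, with 51.3, 38.8 and 66.6 CPM in input, 6.17, 5.27 and 3.84 CPM in IP and 14.7, 17.3 and 18.5 CPM in flow-through. None of these ranges overlapped, and the fold changes of IP were -3.52 ± 0.24 against input (adjusted p = 8.21e-42) and -1.49 ± 0.31 against flow-through (adjusted p = 2.31e-05).

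The balance of rises and falls ranged widely between clusters. For comparison, 6401 of the 25554 other loci of at least 100 counts were higher in IP against input and 28.4% were lower. In the chromosome 17 cluster 31 members rose and 32 fell in IP against input, with a median log2 fold change of -0.12. In that of chr9:67696390-67748523 there were 9 rises and 30 falls (median -0.65), and in chr7:73786814-73825433, which holds Gm10619, 3 rises and 19 falls of 31 members (median -0.90), while chr7:73105895-73145687 had 2 rises and 10 falls of 32 members. In chr2:92542041-92596553 there were 13 rises and 7 falls (median 0.32), and in the chromosome 12 cluster of the most abundant locus 13 and 11. Against flow-through, 27 of 48 members in chr6:127789780-127835800 were higher in IP and 4 lower (median 1.32). In chr5:113322651-113352565 15 of 51 were higher and 13 lower (median -0.36). Of the 25554 other loci, 31.8% were higher in IP than in flow-through and 20.2% lower. Members of a cluster often share a 5′ end, so these counts are a description and the clusters were not tested against each other.

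**Figure D3:**
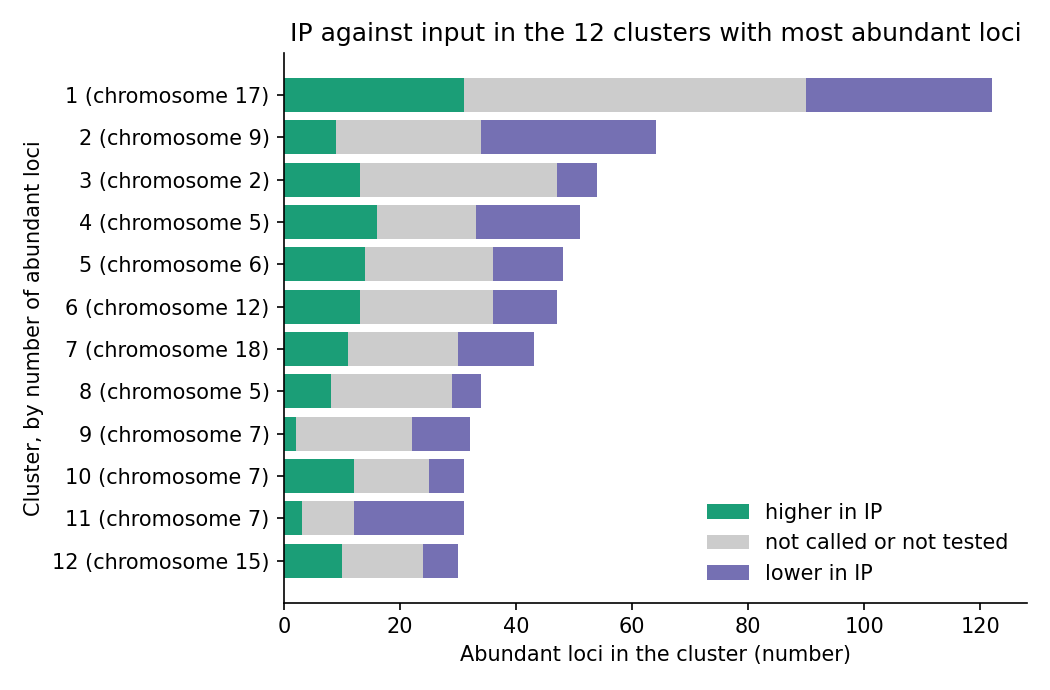
Number of members higher, lower or without a call in IP against input (edgeR, adjusted p under 0.01) in the 12 clusters with most members, ordered by size and labelled by chromosome. The 122 members of the first split into 31 higher and 32 lower, while the second (9 and 30) and the eleventh (3 and 19) hold mostly lower calls.

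By repeat class, SINE members were 2 higher and 11 lower in IP against input out of 20, and LTR members 7 and 21 out of 51. Of other loci of the same class that averaged at least 100 counts, 102 SINE loci were higher and 183 lower out of 537, and 482 LTR loci were higher and 524 lower out of 1850. LINE members were 7 higher and 11 lower out of 37, against 255 and 212 of 908 other LINE loci, and DNA transposon members 0 and 3 out of 7, against 51 and 69 of 248. Outside repeats, 194 members were higher and 217 lower out of 765, against 5511 and 6271 of 22006 other loci. These members often share a 5′ end, and the differences between members and other loci were not tested. The most abundant SINE member, chr6:127800672-127800701 in a MIRc element, had 1037, 912 and 887 CPM in input, 384, 292 and 431 CPM in IP and 547, 618 and 665 CPM in flow-through. IP was below input in every pair of libraries, by -1.49 ± 0.18 on the log2 scale (adjusted p = 7.32e-14). The most abundant LINE member, chr4:94309515-94309545 in an Lx9 element within an intron of Gm12648, had 20.6, 18.8 and 19.9 CPM in input, 10.8, 6.91 and 8.77 CPM in IP and 5.82, 13.9 and 14.1 CPM in flow-through. Input was above all IP and flow-through libraries, and the log2 fold change of IP against input was -1.31 ± 0.23 (adjusted p = 6.12e-07). The most abundant LTR member, chr2:92578867-92578896 in MER90a, had 344 ± 68.9 CPM in input and 366 ± 60.3 CPM in IP and was not called (log2 fold change -0.04, adjusted p = 0.889).

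Length variants of a single 5′ end did not always share a call. Of the 160 ends with 2 or more members, 24 had all members higher in IP against input, 25 all lower, 30 none called, 78 some called and some not, and 3 had calls in both directions. The median range of the log2 fold change within an end was 0.62. At chr6:85112878-85112907, the 30-nt form printed above fell from 262 ± 54.3 to 185 ± 61.2 CPM (SD, n = 3; log2 fold change -0.63, adjusted p = 0.00605) while the 29-nt form rose from 66.1 ± 8.71 to 134 ± 39.1 CPM (0.89, adjusted p = 9.97e-05). The 30-nt call was lost in 9 of 13 other settings, and the difference between the forms was not tested. At the 5′ end at position 52908184 of chromosome 7 the fold change was lowest for the 28-nt form and higher with each further base. It was -0.77 (adjusted p = 0.0107), -1.40 (2.84e-06), -0.41 (0.107), 0.34 (0.181) and 0.86 (0.000709) for the forms of 27, 28, 29, 30 and 31 nt. The ratio of CMC to mock at that end was 0.883, 0.762, 0.768, 0.662 and 0.604 in the same order. The third such end, at position 27334847 of chromosome 17, had a 25-nt form that was lower (-0.76, adjusted p = 0.00349) and forms of 27 and 29 nt that were higher (0.71 and 0.66).

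CMC treatment, which asks where reverse transcription meets Ψ, left the members' levels close to mock. The rule used the mock values of this contrast, and that choice fixes part of its direction, so the values are given without a test. The median ratio of mean CPM in CMC to mock was 0.918, and 590 of 881 members (67.0%) were below mock. Over all 556583 loci with more than 20 counts in the mock and CMC libraries, 44.3% were below mock and the median log2 ratio was 0.06, against -0.12 over the members. Of the 818 loci that reached 100 CPM in CMC instead, 57.0% were below mock, and of the 13230 loci with 10 to 100 CPM in mock, 57.0%. Only 59 members were at least 1.5-fold lower and 8 at least 1.5-fold higher. The lowest ratio, 0.390, was at chr4:94305949-94305979 in an intron of Gm12648, with 133, 146 and 131 CPM in mock and 60.5, 52.1 and 47.2 CPM in CMC, without overlap. The next were chr9:67712885-67712913 at 0.439 and the 29-nt variant of the first, chr4:94305951-94305979, at 0.474, followed by chr17:27310320-27310348 at 0.485 and chr9:67712884-67712913 at 0.494. The highest was 1.93 at chr17:27301679-27301704, with 156, 145 and 155 CPM in mock and 300, 279 and 300 CPM in CMC. The 27-nt form that starts 1 nt away and ends at the same base, chr17:27301679-27301705, had 1.77, while the 30-nt form of that start had 1.07. The next highest were chr18:67048690-67048716 at 1.67, chr5:149823807-149823832 at 1.62 and chr5:135162215-135162241, in an untranslated region of Tbl2, at 1.54. The 5 highest were 26 or 27 nt long and the 5 lowest 29 to 31 nt. By length class, the median ratio was 1.06 at 23 nt or less (7 members), 0.958 at 24 to 27 nt and 0.914 at 28 to 33 nt.

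The CMC ratio and the IP experiment, which share no library, were related over the members. Members higher in IP than in input had a median log2 ratio of CMC to mock of -0.26, with 170 of 210 below mock, members that were lower had -0.02, with 144 of 263, and uncalled members had -0.13, with 276 of 407. On TMM-normalised library sizes, another scaling that moved the median of all members to -0.20, the medians were -0.33, -0.10 and -0.20. Split by IP against flow-through, 261 of the 300 higher members were below mock (87.0%) against 45 of the 133 lower ones (33.8%), with median ratios of 0.829 and 1.06. Of the 88 members with the lowest CMC ratios, 0.390 to 0.702, 66 were higher in IP than in flow-through and 1 was lower. Of the 88 with the highest, 1.16 to 1.93, 8 were higher and 24 lower. Over all tested members 34.1% were higher and 15.1% lower in this comparison. The shares were 31.8 and 20.2% over the other loci of at least 100 counts, and 9.3 and 3.56% over all loci.

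Over the 880 tested members, the log2 ratio of CMC to mock had r = -0.54 and rho = -0.53 with the log2 fold change of IP against flow-through, and r = -0.29 and rho = -0.32 with that of IP against input. The points share libraries and in part their 5′ ends, so no p-value is given. Other loci showed it as well. With ratios of mean CPM and an average of at least 100 counts in the IP experiment, r against flow-through was -0.55 over 812 members, -0.58 over 5728 other loci of 10 to 100 CPM in mock and -0.33 over 19399 other loci under 10 CPM. Against input it was -0.30, -0.23 and -0.14 in the same order. The member with the lowest CMC ratio, in Gm12648, had 24.1, 27.6 and 23.3 CPM in input, 44.8, 62.3 and 36.5 CPM in IP and 1.02, 4.69 and 5.17 CPM in flow-through. All IP libraries were above input and all input libraries above flow-through, and IP exceeded flow-through by 3.98 ± 0.31 on the log2 scale (adjusted p = 2.26e-35). An IP to flow-through gap of this kind on higher counts was at chr7:73109418-73109446, with 293, 475 and 328 CPM in IP and 8.98, 17.97 and 16.8 CPM in flow-through. Its fold change was 4.90 ± 0.28 (adjusted p = 8.49e-66), and its CMC ratio was 0.615. The member with the highest CMC ratio was at 4.94 ± 2.78 CPM in IP and 19.1 ± 1.92 CPM in flow-through (SD, n = 3), a fold change of -1.72 ± 0.30 (adjusted p = 4.83e-07).

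**Figure D4:**
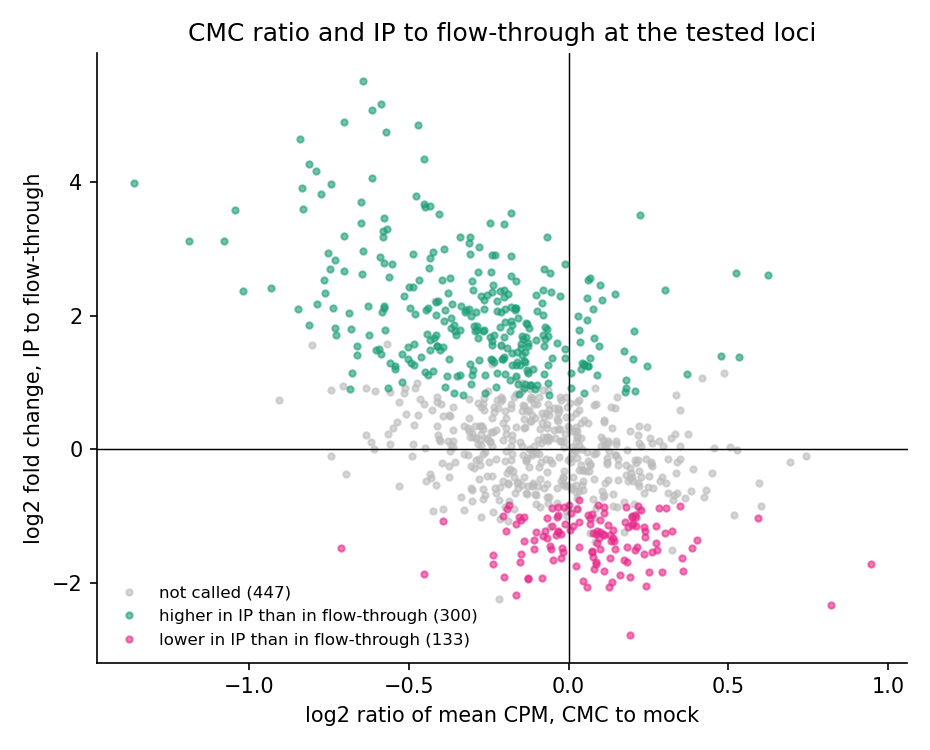
Log2 ratio of mean CPM in CMC to mock (x axis) and log2 fold change of IP against flow-through (y axis) for the 880 tested members, coloured by the edgeR call at an adjusted p under 0.01 (300 higher, 133 lower). Points with low CMC ratios lie mostly above 0 on the y axis, and r over the 880 members is -0.54.

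Uridine content moved with the CMC ratio and with IP against flow-through in the members with sequence, and little with IP against input. Pseudouridine is made from uridine, but whether it accounts for this relation was not tested. Over 88 members with 69 different 5′ ends, the percentage of U had r = -0.80 and rho = -0.81 with the log2 ratio of CMC to mock, 0.55 and 0.51 with the log2 fold change of IP against flow-through, and 0.08 and 0.12 with that of IP against input. All 29 members of the third with most U, 36.7 to 50%, were below mock with a median ratio of 0.773, and 15 of them were higher in IP than in flow-through and 1 lower. In the third with least U, 9.52 to 26.7%, 7 of 29 were below mock, the median ratio was 1.06, and 3 were higher and 4 lower. For comparison, 34.1% of all tested members, 31.8% of the other loci of at least 100 counts and 9.3% of all loci were higher in IP than in flow-through. Lower calls were 15.1, 20.2 and 3.56% in the same order. The part of U content in the CMC and IP values of the other members, or of loci that are not members, was not tested.

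**Figure D5:**
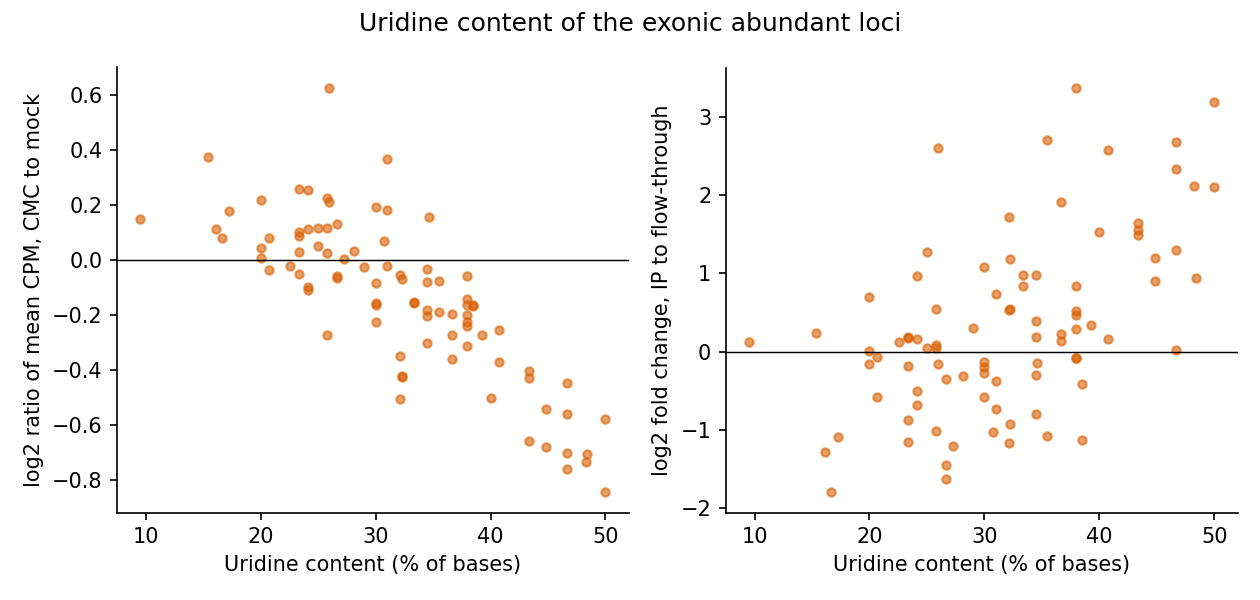
Uridine content of the 88 exonic members (x axis, percent of bases) against the log2 ratio of mean CPM in CMC to mock (left) and the log2 fold change of IP against flow-through (right), with 1 point per member. The CMC ratio falls with U content (r = -0.80), and the IP to flow-through change goes up with it (r = 0.55).

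The printed sequences show both ends of this range. The 21-nt member of Gm49794, with the lowest share of U (9.52%), had 179 CPM in mock and 199 CPM in CMC and was not called in IP against flow-through (log2 fold change 0.12, adjusted p = 0.809). The Nemp1 member (16.7% U), from a gene for a nuclear envelope protein, had a CMC ratio of 1.06 and was lower in IP at 35.4 CPM than in flow-through at 148 CPM (-1.80, adjusted p = 7.59e-11). The Gm30132 member (46.7% U) had 516 CPM in mock and 304 CPM in CMC, and was higher in IP at 89.6 CPM than in flow-through at 21.1 CPM (2.34, adjusted p = 1.71e-16) and than in input at 33.3 CPM (1.29). The Gm21388 member (50% U) had a CMC ratio of 0.556 and was higher in IP than in flow-through (2.11, adjusted p = 2.54e-12) but was not called against input (0.24). Of the 26 members with UNUAA or UNUAG, 7 were higher and 3 lower in IP against input, and of the 62 without, 12 were higher and 24 lower, counts that include length variants of the same ends and were not tested. Over all tested members 23.9% were higher and 29.9% lower, and over the other loci of at least 100 counts 6401 of 25554 were higher and 28.4% lower.

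At the limit of the rule, the lowest members averaged 100.03, 100.05 and 100.1 CPM in mock, at chr9:67724809-67724837, chr7:73811290-73811319 and chr15:83355339-83355365. The loci just outside averaged 99.98, 99.94 and 99.92 CPM, at chr4:135628021-135628048, chr15:83354332-83354358 and chr17:27356495-27356524. In single mock libraries these 6 loci ranged from 80.3 to 114 CPM, and 812 of the 881 members were at 100 CPM or more in each mock library.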

How the data were processed

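The authors deposited 1 file of raw counts per library, each giving the number of reads per genomic interval and strand with any overlapping repeat. Per the study's methods, adaptors were clipped with Cutadapt, reads of 14 to 44 nt kept, tRNA fragments set aside, and the rest mapped to mm10 with Bowtie 2 at up to 3 mismatches and intersected with repeats and piRNA clusters using BEDTools. How reads with several genomic matches were counted is not given in the sources used here, so members within repeats or near-identical copies are uncertain. Starts were read as counted from 0, the only shift at which most exonic reads begin with T, and are printed counted from 1.

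CPM was computed on file totals. IP, input and flow-through counts were tested in pairs of groups (3 libraries against 3) with edgeR 4.0.16 in R 4.3.3 (quasi-likelihood F test, TMM, Benjamini-Hochberg over all loci with more than 20 counts over the 9 libraries, threshold 0.01). All log2 fold changes and adjusted p-values in the report are from it unless DESeq2 1.42.0 is named. On data simulated for IP against input over 686863 loci, of which 200 with an average of at least 100 counts were changed, 65 of 66 loci changed 4-fold, 8 of 67 changed 2-fold and 0 of 67 changed 1.5-fold were called; in the real data, where many more loci were called, the smallest called changes of members in IP against input were a rise of 0.62 and a fall of 0.59 in size (log2). Genes were from GENCODE M21. Clusters were formed from the members, since the study's list of intervals, named in the plan, was not used. Members, lists and tests were chosen with earlier results of these data known. Members to name were drawn from the 10 most abundant, the largest called changes in each direction of each comparison that held in all 9 pairs of libraries, the 5 extreme CMC ratios in each direction, the most abundant per repeat and length class, and those at the limit of the rule; some of the first 2 kinds are given only within counts and ranges, and the length forms and uridine examples were chosen after their values were seen. Alternatives were other size factors, DESeq2, a replicate block, other count minimums, sums over 5′ ends, loci of 24 to 33 nt, and leaving out each library.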

Additional observations from a re-analysis of the deposited data

How the results depend on the processing

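Of 505 recomputed log2 fold changes of named members, 482 kept their direction and their side of the threshold, 15 lost the call and 8 turned their sign, all 8 of members not called in any of these settings. In IP against input, chr12:98447235-98447265 went from 0.05 to -0.041 with no minimum on counts, -0.074 with lengths summed, -0.17 without IP replicate 2, -0.085 without input replicate 1 and -0.18 without input replicate 3, the lowest with 1 library left out, while the highest was 0.44, and chr5:149823509-149823537 from 0.08 to -0.0092 with no minimum, -0.0085 without IP replicate 2 and -0.013 without IP replicate 3, the highest with 1 library left out being 0.26. With no minimum on counts, 307 members were called in IP against input, 89 of them higher, and 83 were higher in flow-through against input. A minimum average of 10 counts gave 196 of the latter. Leaving out each library in turn gave 350 to 474 members called in IP against input, 127 to 228 higher and 217 to 260 lower, and 86 to 180 higher in flow-through against input; without input replicate 1 the higher calls were 133 and 86, and without input replicate 3 they were 127 and 86. The cause was not tested. Choosing loci on input gave 406 in place of 881, and summing lengths at each 5′ end gave 1500. Among counts at 24 to 33 nt the share of members was 24.48% in mock, 22.71% in CMC and 5.517% in input. The median log2 ratio of CMC to mock was -0.199 on TMM-normalised sizes. With the replicate block, 508 members were called in IP against input, 439 in IP against flow-through and 509 in flow-through against input, within 1.5 times of the values without it. Deviations of same-numbered IP and input libraries correlated at 0.291, 0.343 and -0.026, and 2 of 3 IP libraries correlated best with their own number. These values do not exclude that libraries were paired by number. The main test took no pairs, and the replicate block was its alternative. Depth limits members of few counts: 16 averaged under 1 CPM in IP.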
